A study of Mus musculus with 3 samples.

Results

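The expression of 36 genes of DNA replication and mitosis was examined in sieved renal corpuscles of adult mice. The renal corpuscle is the filter of the nephron, a tuft of capillaries held by mesangial cells, wrapped in podocytes and enclosed in a capsule. There were 3 samples and 1 group, with no treatment and no control group. The animals were wild-type CD-1 males of 7 to 9 weeks, CD-1 being an outbred stock, and tissue of approximately 2 kidneys was pooled for each sample. Corpuscles were freed with collagenase A and passed through filters of 100, 70 and 40 µm, and total RNA was amplified in 1 round and hybridised to Affymetrix mouse gene arrays, 1 array for each sample. No cells were sorted, so a signal belongs to the mixture of cells, and fewer cells of a type cannot be told apart from less RNA per cell. The genes were listed by symbol for their known roles. Each was read from the probe set whose annotation names that symbol alone, taking the one of highest mean where there were several, and 35 of the 36 had a value among 19938 genes. Ccnb1, which encodes cyclin B1, was not analysed here.

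Cells that leave the cycle shut down most of the genes that copy and divide chromosomes. Podocytes are a textbook case of a resting cell. They stop dividing when the glomerulus matures and are poorly replaced when lost, whereas endothelial, mesangial and parietal cells can divide, though slowly in a healthy adult. The genes that serve S phase, such as those of the replicative helicase, are switched on by E2F factors in late G1, and those that serve mitosis are switched on later through the CHR element, which binds the DREAM complex in resting cells and activating partners in dividing ones. Many mitotic promoters also carry the CCAAT box bound by NF-Y.

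Background was taken from 1212 probe sets for olfactory and vomeronasal receptors, most of which serve the sensory epithelia of the nose. The 95th percentile of their log2 signals was 6.90, 6.96 and 6.92 on the arrays of replicates 1, 2 and 3. Detection means a log2 signal above this level at an adjusted p under 0.05 in a one-sided limma test over all genes. Of the receptor genes themselves 4.52% passed, a share that follows largely from the percentile chosen and is not an observed error rate. The defining markers of the corpuscle were present. Of those analysed, 4 of 4 for podocytes, 6 of 6 for endothelium and 5 of 5 for mesangium were detected, with median levels 3.88, 4.08 and 4.42 log2 above background. In 54.2% of genes the deposited signal was identical on the 3 arrays, and in 27.5% on 2 of them, so a spread of 0 is not an error of 0. For this reason no p of a single gene is given, though each detection call rests on an adjusted p. Where the 3 signals were identical, the spread in the test came only from the background levels and the variance prior. Such a call does not measure variation between samples, and 8 of the 18 detected members below are of this kind. Separate litters or days of preparation are not named in the labels, so the spread over the arrays covers these samples and may include technical differences.

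Of the 35 genes, 18 were detected, which is 51.4%, against 58.9% of all genes. The share of detected genes was near that of genes in general. The median level was 0.12 log2 above background, against 0.37 for all genes. With the 99th percentile of the receptors as background 7 of 35 were detected, against 41.7% of all genes. At least 0.5 log2 above background on each array were 9 of the 35 genes, against 45.4% of all genes. A linear signal over 150 was reached on all 3 arrays by 14 genes, or 40.0%, against 51.3% of all genes. The study used 150 as a filter on signals summarised in GeneSpring, to be met by at least 3 samples. Whether the deposited values used here share that scale is not known. Signals over 500 on all 3 arrays were held by 2 genes, Bub3 and Pcna, against 3437 of all 19938 genes. Only Pcna was over 1000, against 1514 of all genes. The genes just inside and just outside the limit were Cdc20, 0.12 log2 above background, and Ccna2, whose level above background was -0.056.

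**Figure D1:**
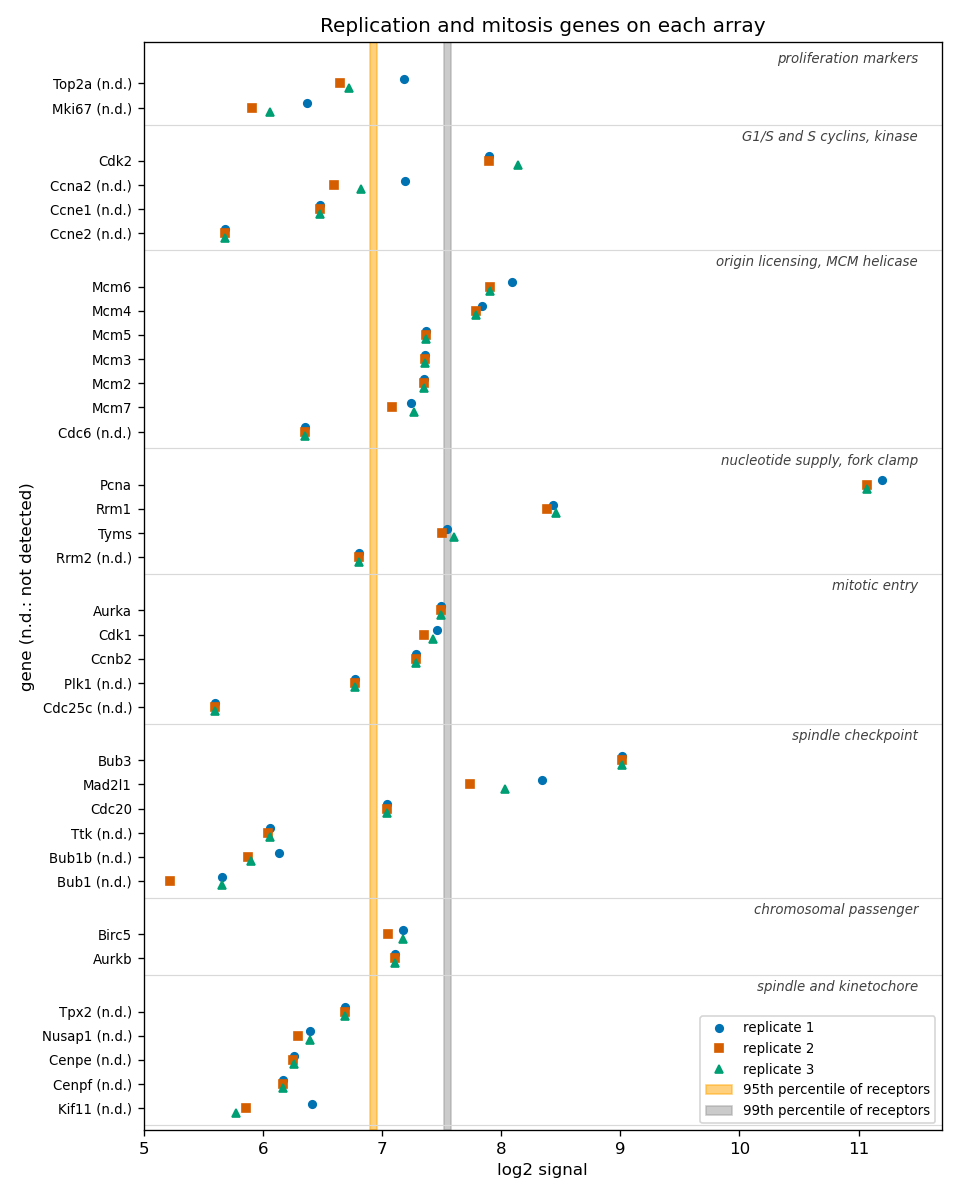
log2 signal (horizontal axis) of 35 replication and mitosis genes (rows, grouped by role) on the arrays of replicates 1, 2 and 3; the orange and grey bands span the 95th and 99th percentiles of receptor probe sets on the 3 arrays. Most detected genes lie between the bands, Pcna stands at 11.12 on average, and all genes of the spindle and kinetochore group lie left of the orange band.

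The markers most used to recognise dividing cells, Mki67 and Top2a, were not detected. Mki67, whose product coats mitotic chromosomes, had log2 signals of 6.37, 5.91 and 6.06 on replicates 1, 2 and 3, all under background, with a mean of 6.11 ± 0.24 (SD, n = 3). Top2a encodes the topoisomerase that untangles sister chromatids, and its log2 signals were 7.18, 6.64 and 6.73. It was above background on replicate 1 and under it on the other arrays. A further probe set that names Top2a alone had lower log2 signals of 4.67, 4.69 and 4.36, so the probe sets of this gene disagreed on level. Replicate 1 held the highest signal of both genes. Their promoters are shown because they carry both mitotic elements. They come from RefSeq (GRCm38.p6), 250 bases before to 50 after the annotated start, Mki67 at chr7:135716330-135716629 and Top2a at chr11:99024140-99024439, both on the minus strand. Capitals mark the CCAAT box (CCAAT), the CHR element (TTTGAA) and the E2F site (TTTCGCGC or TTTGGCGC), each on either strand.
Mki67: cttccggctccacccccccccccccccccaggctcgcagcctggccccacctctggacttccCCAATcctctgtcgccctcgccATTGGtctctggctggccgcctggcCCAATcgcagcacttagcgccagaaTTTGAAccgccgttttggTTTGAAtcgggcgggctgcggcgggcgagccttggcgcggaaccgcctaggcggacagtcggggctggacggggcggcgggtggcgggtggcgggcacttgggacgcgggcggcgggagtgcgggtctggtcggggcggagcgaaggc
Top2a: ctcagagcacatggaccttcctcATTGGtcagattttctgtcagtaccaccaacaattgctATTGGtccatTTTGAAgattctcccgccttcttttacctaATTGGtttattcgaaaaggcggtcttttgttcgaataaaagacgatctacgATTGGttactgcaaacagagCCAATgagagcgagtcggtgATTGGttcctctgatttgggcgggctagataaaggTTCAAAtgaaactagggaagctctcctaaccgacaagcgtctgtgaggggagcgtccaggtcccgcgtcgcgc
In the Mki67 window the CHR letters begin 116 and 98 bases before the start, and 3 CCAAT boxes lie further upstream. The Top2a window holds 6 CCAAT boxes and 2 CHR matches, the nearer of which begins 23 bases before the start. Neither holds an E2F site in these letters.

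Of 4 cyclins and kinases of the G1/S transition and S phase, 1 was detected, against 58.9% of all genes. Cdk2, the kinase that pairs with cyclins E and A, had log2 signals of 7.90, 7.90 and 8.14, all above background. Ccne1 and Ccne2, the E cyclins that start S phase, held 6.48 and 5.68 log2 on all 3 arrays and were not detected. Ccna2, cyclin A2, which acts in S phase and early mitosis, showed log2 signals of 7.19, 6.59 and 6.82. It thus passed background on replicate 1 alone, as Top2a did. Cdk2 was thus detected, and the 3 cyclins that pair with it were not.

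All 6 genes of the MCM ring of the replicative helicase were detected, against 58.9% of all genes. The products of Mcm2 to Mcm7 form the ring that is loaded on origins in G1 and unwinds DNA in S phase, and all 6 were above background on each array. Mcm6 had log2 signals of 8.09, 7.90 and 7.90, a mean level 1.04 above background. Mcm4 was nearly the same on the 3 arrays, at 7.84, 7.79 and 7.79. Only Mcm4 and Mcm6 were also detected against the 99th percentile of receptors, as 41.7% of all genes were. Mcm2, Mcm3 and Mcm5 held single log2 signals of 7.35, 7.36 and 7.37, and Mcm7 had 7.25, 7.08 and 7.27, just 0.28 above background on average. Cdc6, the loader that places the ring on origins, held 6.35 log2 and was not detected. The Mcm6 promoter (chr1:128359656-128359955, minus strand, same capitals) is given as an example of an S phase promoter.
Mcm6: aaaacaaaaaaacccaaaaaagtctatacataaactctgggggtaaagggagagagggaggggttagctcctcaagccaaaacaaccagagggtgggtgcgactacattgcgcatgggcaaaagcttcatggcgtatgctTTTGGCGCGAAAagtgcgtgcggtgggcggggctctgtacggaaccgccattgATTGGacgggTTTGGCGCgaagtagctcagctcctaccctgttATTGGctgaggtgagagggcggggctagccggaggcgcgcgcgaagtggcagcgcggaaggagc
It holds 3 matches to the E2F letters, beginning 110, 106 and 47 bases before the start, the first pair overlapping, together with 2 CCAAT boxes and no CHR element.

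Of 4 genes of nucleotide supply and the replication fork, 3 were detected, against 58.9% of all genes. Pcna, the sliding clamp of DNA polymerases, which also serves DNA repair, had log2 signals of 11.20, 11.07 and 11.07, a mean linear signal of 2218. A further probe set naming Pcna gave the same 11.20, 11.07 and 11.07. The RefSeq gene table lists the pseudogenes Pcna-ps1 and Pcna-ps2, and whether their transcripts add to these signals was not tested. Rrm1, the large subunit of ribonucleotide reductase, had log2 signals of 8.44, 8.39 and 8.46 and was detected under both percentiles. Its partner Rrm2, the subunit made mainly in S phase, held 6.81 log2, under background. Tyms, thymidylate synthase, had log2 signals of 7.55, 7.50 and 7.60. The table also lists pseudogenes of Tyms, Ccnb2 and Aurkb.

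Genes of mitotic entry stood near background. Cdk1, the kinase that drives cells into mitosis, had log2 signals of 7.46, 7.35 and 7.43, a mean level 0.49 above background. Ccnb2, a B cyclin that activates it, held 7.28 log2, and Aurka, the Aurora kinase of centrosomes and spindle poles, held 7.49. These 3 of 5 were detected against the 95th percentile and 0 of 5 against the 99th, compared with 58.9% and 41.7% of all genes. Plk1, the polo kinase, held 6.77 log2, and Cdc25c, a phosphatase that activates Cdk1, held 5.60; neither was detected. The Cdk1 promoter (chr10:69352863-69353162, minus strand, same capitals) is shown because it was the one window with all 3 motifs.
Cdk1: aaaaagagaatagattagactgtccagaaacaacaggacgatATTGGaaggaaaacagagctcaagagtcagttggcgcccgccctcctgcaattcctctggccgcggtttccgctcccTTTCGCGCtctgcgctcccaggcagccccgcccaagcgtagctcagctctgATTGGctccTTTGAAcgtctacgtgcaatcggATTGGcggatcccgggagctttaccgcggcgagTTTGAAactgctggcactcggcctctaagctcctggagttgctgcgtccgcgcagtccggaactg
An E2F site begins 131 bases before the start, CHR elements begin 71 and 15 bases before it, and there are 3 CCAAT boxes.

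The spindle checkpoint, which holds anaphase until every chromosome is attached, had detected and undetected members. Bub3, a checkpoint scaffold, held 9.01 log2 on the 3 arrays, 2.09 above background. Mad2l1, the inhibitor that the checkpoint loads on Cdc20, had log2 signals of 8.34, 7.74 and 8.03, which is 8.04 ± 0.30 (SD, n = 3). Both were detected under either percentile. Cdc20, the activator of the anaphase-promoting complex, held 7.04 log2 and was detected only against the 95th percentile. The checkpoint kinases were not detected. Bub1 had log2 signals of 5.65, 5.22 and 5.65, Bub1b had 6.14, 5.87 and 5.90, and Ttk had 6.06, 6.05 and 6.06. In all, 3 of 6 genes of this group were detected, against 58.9% of all genes.

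Both genes of the chromosomal passenger complex among the members lay just above background. Aurkb, its kinase, held 7.11 log2, and Birc5, survivin, had log2 signals of 7.17, 7.05 and 7.17. Neither reached a linear signal of 150. Incenp and Cdca8, of the same complex, stand on the wider list described below and were not detected. Their levels were -0.092 and -0.27 log2 relative to background, and Cdca8 was named after its values were seen. Among genes of the spindle and kinetochore 0 of 5 were detected, against 58.9% of all genes. Tpx2, which nucleates spindle microtubules, held 6.69 log2, and Nusap1, which bundles them, had 6.40, 6.30 and 6.40. Cenpf, of the outer kinetochore, held 6.17, and the kinetochore motor gene Cenpe had 6.26, 6.25 and 6.26. Kif11, the motor that pushes spindle poles apart, had log2 signals of 6.41, 5.85 and 5.77. Its range over the arrays was wide for a gene under background, with replicate 1 high.

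A wider list of 153 cell cycle genes was set beside these, of which 151 had a value. Detected were 90, or 59.6%, against 58.9% of all genes, and their median level was 0.39 log2 above background, against 0.37 for all genes. Of 27 genes of the replication fork and nucleotide supply 22 were detected, or 81.5%, led by Rrm2b, the reductase subunit of resting cells, at 9.16 ± 0.07 log2 (SD, n = 3), Rpa3 at 8.97 ± 0.06 and Pold3 at 8.86. Rfc4 and Chaf1a were among those not detected. Of 19 genes of origin recognition and firing 12 were detected, or 63.2%, with Orc3 at 10.02 ± 0.05, Gins4 at 9.87 ± 0.08 and Orc4 at 9.30 ± 0.10, and Recql4 and Mcm10 were among the others. Of 27 genes of mitotic entry and the anaphase-promoting complex 20 were detected, or 74.1%. The complex itself led here, with Anapc5 at 10.39 ± 0.02, Cdc27 at 9.75 ± 0.09 and Anapc1 at 9.54 ± 0.10, whereas Ube2c, its mitotic partner enzyme, and the kinase gene Nek2 were among those not detected.

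The lists of mitotic structures held more undetected than detected genes, whereas 58.9% of all genes were detected. Of 30 genes of the kinetochore and passenger complex 12 were detected, or 40.0%, among them Ska2 at 9.42, Mis12 at 8.94 and Cenpc1 at 8.17 ± 0.09 log2 (SD, n = 3). Incenp and Cenpk were among the undetected genes. Of 29 genes of the spindle, cytokinesis and condensin 8 were detected, or 27.6%, led by Smc4, a condensin subunit, at 9.47 ± 0.18, Ckap5 at 9.41 ± 0.09 and Ncapd3 at 7.90 ± 0.06. The kinesin genes Kif20a and Kif22 were among the undetected genes. The medians of these lists were -0.29 and -0.37 log2 relative to background. By contrast 16 of 19 genes of the E2F, pocket protein and DREAM list were detected, or 84.2%. The median of this list was 1.16 log2 above background, and 68.4% of it was detected against the 99th percentile. The detected genes included Rb1, the retinoblastoma gene, at 9.59, Tfdp2, a partner of E2F factors, at 9.11 ± 0.01, and Rbbp4, a histone binding subunit of DREAM, at 8.88 ± 0.03. The undetected genes were E2f2, E2f8 and, named after its values were seen, Mybl1. Lin54, also named afterwards, encodes the DREAM subunit that binds the CHR element, and held 8.09 log2 on the 3 arrays. No test between these lists was run.

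**Figure D2:**
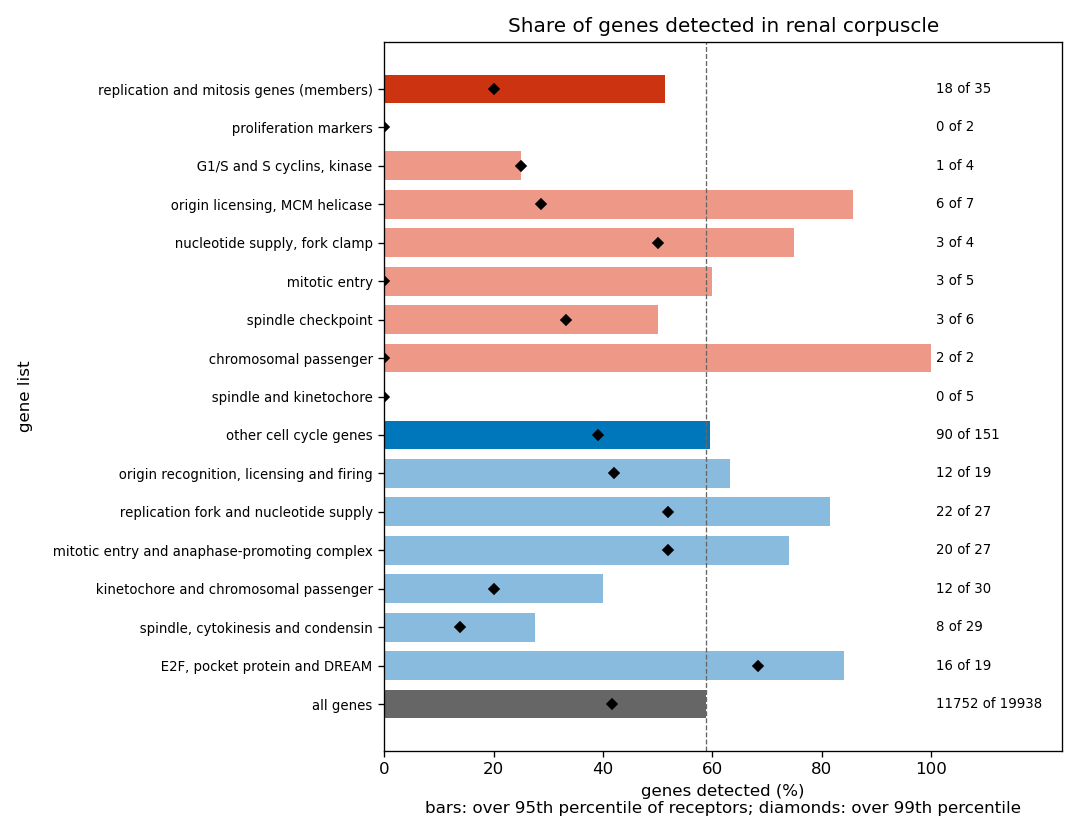
Percent of genes detected (horizontal axis) in the replication and mitosis genes, their 8 role groups, 6 lists of other cell cycle genes and all genes (rows); bars use the 95th percentile of receptors, diamonds the 99th, numbers at the right count detected genes and the dashed line is the 58.9% of all genes. The member groups run between 0 of 5 for spindle and kinetochore and 2 of 2 for the listed passenger genes. In the wider lists kinetochore and passenger (12 of 30) and spindle (8 of 29) lie left of the line. Origin recognition (12 of 19) is near the line.

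The 3 preparations were not alike in these genes. Of the 35 genes, 16 held 1 value on all arrays, 9 had 2 values and 10 had 3. Among the 19 genes whose signals differed, 17 were above their own mean on replicate 1, or 89.5%, against 52.1% of the 9129 genes that differed overall. The exceptions were Cdk2 and Tyms. Replicate 1 was the single highest array for 10 of the 19 and the single lowest for 0, while replicate 2 was the single lowest for 14 and the single highest for 0. Over all differing genes replicate 1 was the single highest in 30.1%, and replicate 2 was the single lowest in 1842 of 9129. Replicate 3 was the single highest for 4 of the 19, Cdk2, Mcm7, Rrm1 and Tyms.

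Among the 19, the excess on replicate 1 was above 0.2 log2 for 7 genes, of which Mad2l1 alone was detected. On replicate 1 the log2 signal exceeded the mean of the other arrays by 0.60 for Kif11, 0.50 for Top2a, 0.48 for Ccna2, 0.46 for Mad2l1, 0.38 for Mki67, 0.25 for Bub1b and 0.22 for Bub1. Next came Mcm6 with 0.19 and Pcna with 0.13, and the excess was 0.072 for Cdk1, 0.049 for Mcm4 and 0.012 for Rrm1. All 9 undetected members whose signals differed were above their own mean on replicate 1, against 34.2% of the 2553 undetected genes that differed. The count includes very small excesses, 0.050 log2 for Nusap1, 0.0062 for Ttk and 0.0025 for Cenpe. Without replicate 2, Top2a and Ccna2 were detected, with levels 0.046 and 0.097 log2 above background.

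**Figure D3:**
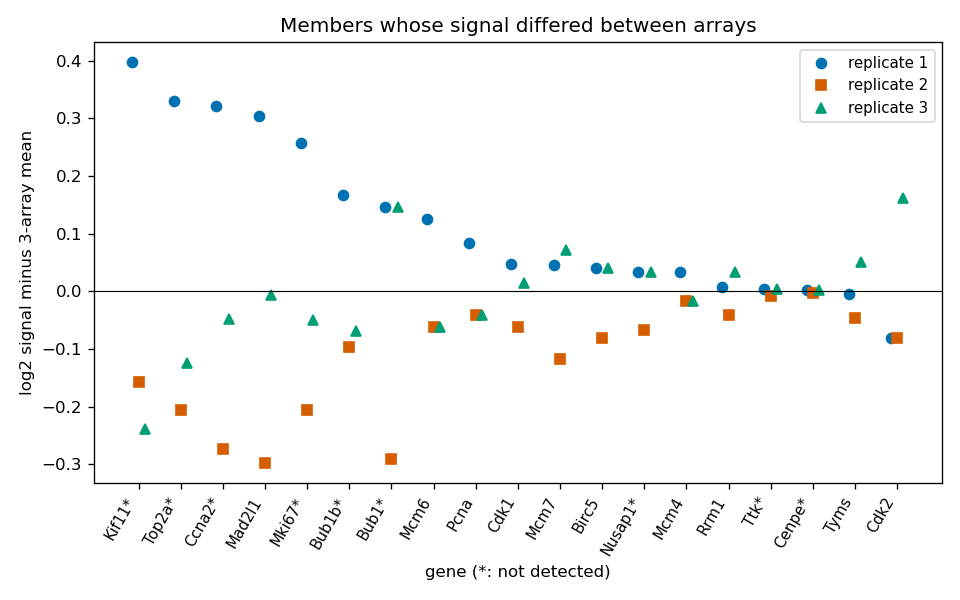
log2 signal minus the mean of the 3 arrays (vertical axis) for the 19 members whose signals differed between arrays (horizontal axis), ordered by the excess of replicate 1; asterisks mark undetected genes. Replicate 1 lies above 0 for 17 of 19 genes and replicate 2 is the single lowest for 14.

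The wider list showed the same lean. Of 73 other cell cycle genes whose signals differed, 60 were above their own mean on replicate 1, or 82.2%. Among spindle, cytokinesis and condensin genes it was 14 of 15. Ncapg, a condensin subunit chosen here after its values were seen, had log2 signals of 7.50, 6.65 and 6.93, and Prc1, which bundles the midzone of the spindle and was chosen likewise, had 6.99, 6.36 and 6.58. The summed linear signal was 7510, 6928 and 7137 over the 35 genes on replicates 1, 2 and 3, and 7637455, 7555682 and 7536450 over all genes. Pcna, with a mean linear signal of 2218, was the largest single part of the sum over the 35 genes.

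Markers of other cells were read on the same arrays. Of 5 T and B cell markers analysed 2 were detected, among them Cd3e, and the B cell gene Cd79a was not. Against the 99th percentile 0 of these 5 markers were detected, and their median level was 0.013 log2 above background. Their summed linear signal was 644, 600 and 585 on replicates 1, 2 and 3. The single lowest array was replicate 2 for 1 of these markers and replicate 3 for 2, and the other 2 held 1 value. Of 6 macrophage and leukocyte markers 5 were detected, with Adgre1 at 5.84 log2 the exception and Tyrobp at 9.08 ± 0.41. Against the 99th percentile it was 4 of 6. The sum was 1824, 2131 and 1468, highest on replicate 2. Of 5 erythroid markers 4 were detected, Klf1 not, and the sum was 695, 679 and 679. Their median level was 0.21 log2 above background, against 0.37 for all genes, and 1 of 5 was detected against the 99th percentile. Proximal tubule markers, 5 of 6 detected with Kap highest and Cubn undetected, summed to 2531, 2979 and 2755, lowest on replicate 1. Kap was 3.68 log2 above background, against a median of 3.88 for the podocyte markers. The median of the tubule markers was 0.85, and 3 of 6 were detected against the 99th percentile. Podocyte markers summed to 9267, 9227 and 9206, endothelial markers to 18957, 18401 and 18508, and mesangial markers to 14250, 14833 and 14950. Markers whose signals differed were also counted above their own mean on replicate 1. They were 5 of 5 for endothelium, 3 of 3 for T and B cells, and 2 of 2 each for podocytes and erythroid cells. The count was 2 of 4 for macrophages and leukocytes, 1 of 3 for mesangium and 1 of 5 for proximal tubule. Over all differing genes it was 52.1%. The part of these cell types in the lean of replicate 1 was not tested.

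The promoters of the members were then compared with promoters in general. Windows were found in RefSeq for 30 of the 36 genes. A CCAAT box was present in 24 of 30, or 80.0%, against 41.1% of 27025 genes (37.4% of all 32851 windows). The CHR letters were present in 13 of 30, or 43.3%, against 20.2% of genes (17.9% of windows). The E2F letters were present in 5 of 30, or 16.7%, against 0.929% of genes (0.813% of windows). The genes with E2F letters were Mcm3, Mcm5, Mcm6, Mcm7 and Cdk1, all detected, which made 5 of 16 detected members and 0 of 13 undetected ones, Ccnb1 having a window but no signal. Among all genes the shares were 1.70% of detected and 0.710% of undetected ones. The CHR letters ran the other way in count, in 6 of 16 detected members and 7 of 13 undetected ones, against 13.7% and 22.7% of all detected and undetected genes. CCAAT boxes were found in 13 of 16 detected members and 10 of 13 undetected ones. The members were listed as cell cycle genes, a match is not a bound site, and the absence of these letters from a window says nothing of the factor. No test was run on these counts.

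**Figure D4:**
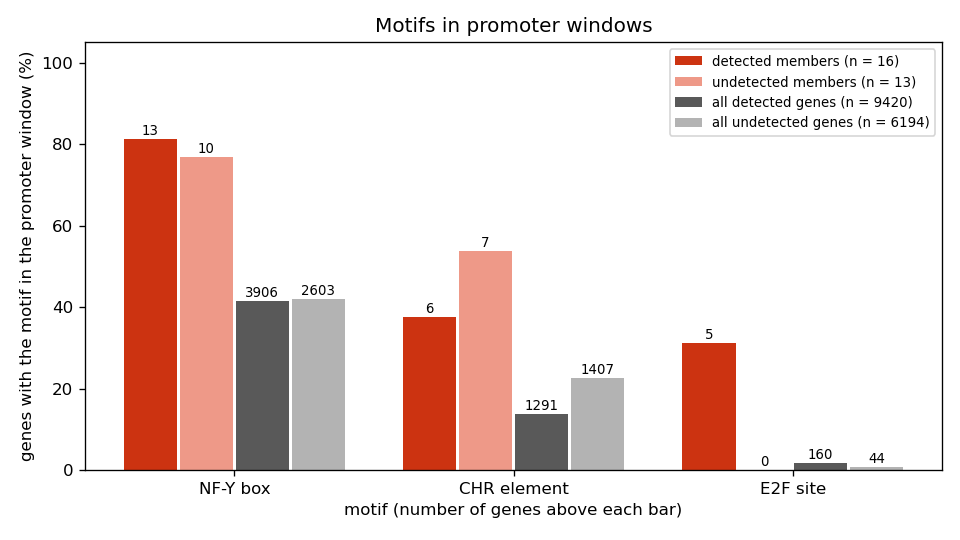
Percent of genes (vertical axis) whose RefSeq promoter window of 300 bases holds an NF-Y (CCAAT) box, a CHR element or an E2F site (horizontal axis), for 16 detected and 13 undetected members and for all detected and undetected genes; numbers above the bars count genes. E2F letters occur in 5 detected members and 0 undetected ones, and CHR letters in 6 and 7.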

How the data were processed

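Total RNA of 3 pooled samples was amplified and labelled by the authors with NuGEN kits, and the authors deposited 1 table of log2 signals for 35557 probe sets. Affymetrix Expression Console is named in the processing notes of the submitters; its version, summary method and settings are not given in the sources used here. Medians of the arrays were 7.11, 7.11 and 7.09 and the values were used as deposited. The number of arrays limits the precision. Gene names came from GEO's platform annotation, which gives 1 symbol for 21789, several for 1621 and none here for 12147. Only the first kind stood for a gene, by the probe set of highest mean.

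Detection used limma 3.58.1 in R 4.3.3, with lmFit and an intercept on log2 signal minus background, eBayes with a trend on level, a one-sided test and Benjamini-Hochberg adjustment over 19938 genes. The fit was checked on simulated data. Members and lists were chosen with earlier results of these data known. All members are named. From each other cell cycle list come the 3 detected genes of highest mean and up to 2 undetected ones, and from each marker list the highest and lowest, apart from genes said to be chosen later. The samples form 1 group, so no conditions were compared. Alternatives changed the background, normalization, probe set, variance prior, rule or number of arrays. Promoter motifs were counted on both strands with overlaps in Python 3.11.15.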

Additional observations from a re-analysis of the deposited data

How the results depend on the processing

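No paired analysis was possible because all 3 arrays belong to 1 group. The count of 18 detected replication and mitosis genes was 7 with the 99th percentile of receptors, 34 with their median, and 9 under the rule of 0.5 log2 on each array, a rule chosen after seeing the data. All genes went to 18031 with the median, and the wider cell cycle list to 59 with the 99th percentile and 149 with the median, since these settings raise or lower the level itself. Leaving out each replicate gave 18 to 20 members, 11424 to 11869 of all genes and 87 to 91 of the wider list, and 14 or 15 members over 150. With the 99th percentile as background the levels of 11 detected members were below it: Mcm2 -0.21, Mcm3 -0.20, Mcm5 -0.19, Mcm7 -0.36, Tyms -0.0085, Ccnb2 -0.28, Cdk1 -0.15, Aurka -0.068, Cdc20 -0.52, Aurkb -0.45 and Birc5 -0.43 log2. Against a fixed signal of 150 they were -0.029 for Mcm7, -0.19 for Cdc20, -0.12 for Aurkb and -0.097 for Birc5. Olfactory receptors alone, quantile normalization, the probe set of lowest mean, a prior without trend and the rule of each array above background kept the call of all 35 members. The probe set setting could act only on Top2a and Pcna, since 33 members had 1 probe set. The lean of replicate 1, 17 of 19, was 16 after quantile normalization and 18 with arrays shifted to the median of receptors, both settings chosen after seeing the data. Over all genes that differed, the share above their own mean on replicate 1 moved from 52.1% to 45.8% and 58.4% under these settings. Signals near background limit what can be said of weak genes.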
